A study of Mus musculus with 4 samples.

Results

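The interferon regulatory factors (IRFs) are a family of transcription factors, and 8 genes of the family, Irf1, Irf2, Irf3, Irf4, Irf5, Irf7, Irf8 and Irf9, were followed here in mouse T cells. They were picked by name out of the 50600 genes listed in each count table, of which 23365 had at least 1 count in any library. All 8 were found under their symbols and all 8 had counts in every library. The rule is a list of names.

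The source of the RNA was primary T cells from the inbred mouse strain C57BL/6NJ. There was 1 group, with 4 biological replicates, and the labels name no treatment, allele or transgene and record sex as not collected and age as unknown. All 4 replicates carry the same donor identifier, so the p-values reflect no more than the spread among these 4 samples, which may be technical. The file headers add the words Th0 and activated and a time of 48 hours, and these are absent from the labels. By convention Th0 denotes helper T cells stimulated with no polarising cytokine, and the linked differentiation protocol is named for CD4 T cells. The design has no contrast, so the data give which of the factors were expressed, in what order, and how far the replicates differed.

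Counts assigned to genes ranged from 45110199 to 127755788 per library, a 2.83-fold range, and a count of 0 allowed at most 0.0235 to 0.0665 CPM (counts scaled to library size), taking 3 counts as the limit. Such limits cover counting error only. The T cell label was checked with 10 markers. All 10 lay above 1 CPM, and their summed level was 4015 to 4090 CPM. The class II coreceptor gene Cd4 averaged 931 CPM ± 9.79 (SD, n = 4), and the class I coreceptor genes went opposite ways, with Cd8a below 1 CPM at 0.279 CPM ± 0.142 and Cd8b1 above it at 9.62 CPM ± 0.749.

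IRFs share a DNA-binding domain that recognises GAAA repeats, the core of the interferon-stimulated response element (ISRE). IRF3, IRF5 and IRF7 are held inactive until pathogen sensors trigger their phosphorylation, and they then switch on type I interferon genes. IRF9 brings activated STAT proteins to ISREs after interferon binds its receptor, IRF1 is itself an interferon-induced activator, and IRF2 competes with IRF1 for the same sites. IRF4 and IRF8 belong to the immune lineages and bind DNA largely with partners such as PU.1 or the BATF and JUN proteins, and in T cells IRF4 is induced by antigen receptor signals and is needed for clonal expansion and effector differentiation.

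Irf4 was by far the most abundant of the 8 per unit of length. Its level was 556, 581, 605 and 584 TPM (CPM corrected for the merged exon length of each gene and rescaled to one common sum) in replicates 1 to 4, a mean of 582 TPM ± 20.4. These 4 values lay close together, and each was several times any value of another factor. Of 15076 protein-coding genes with a count, 224 had a higher mean TPM, which put Irf4 at percentile 98.5. It supplied 68.8% ± 0.703 (SD, n = 4) of the summed TPM of the 8 genes. In the same libraries Irf8, its closest relative in the family, had 41.2, 46.5, 41.7 and 47.8 TPM, a mean of 44.3 TPM ± 3.31. The libraries fell into higher values in replicates 2 and 4 and lower values in replicates 1 and 3, and none came near Irf4. The ratio of Irf4 to Irf8 was 13.1-fold, a log2 ratio of 3.71 ± 0.11, and Irf4 was higher in 4 of 4 libraries. An exact sign-flip permutation test of such a ratio cannot give a two-sided p below 0.13 with 4 libraries, and that smallest value was obtained here.

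**Figure D1:**
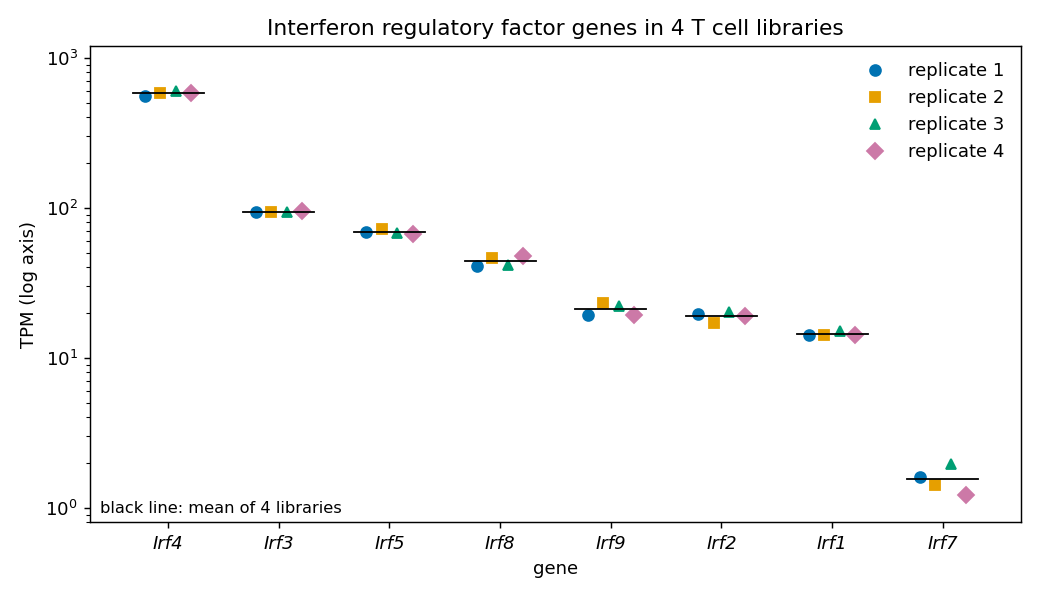
Level of each of the 8 factors in TPM on a log axis, with each point 1 of the 4 libraries and the bar the mean, in falling order of the mean from left to right. Irf4 stands at 556 to 605 TPM and Irf7 at 1.22 to 1.97 TPM, and the points of Irf9 and Irf2 overlap.

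The factors that act downstream of pathogen sensors spanned a wide range. Irf3, the constitutive factor activated by the kinases TBK1 and IKK-epsilon, had 93.6, 93.6, 93.6 and 95.6 TPM, a mean of 94.1 TPM ± 0.999. Replicates 1 to 3 were almost identical and replicate 4 was slightly higher. Irf5, activated through the Toll-like receptor adaptor MyD88 and best known from myeloid and B cells, had 69.4, 72.6, 67.5 and 66.7 TPM, a mean of 69.1 TPM ± 2.60. Its highest value lay below the lowest value of Irf3. Irf7, the interferon-induced factor that amplifies type I interferon, had 1.60, 1.43, 1.97 and 1.22 TPM, a mean of 1.56 TPM ± 0.315. Those values rest on 101, 71, 273 and 72 counts, in replicates 1 to 4. Irf7 was thus the lowest of the 8 in every library. The ratio of Irf3 to Irf7 was 60.5-fold, a log2 ratio of 5.85 ± 0.28 (exact permutation p = 0.13, n = 4 libraries, the smallest possible).

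The factors of the interferon response itself lay between these extremes. Irf9, the DNA-binding subunit of the ISGF3 complex, had 19.4, 23.3, 22.1 and 19.3 TPM, a mean of 21.03 TPM ± 2.00. Irf2, the competitor of Irf1, had 19.7, 17.0, 20.1 and 18.9 TPM, a mean of 18.9 TPM ± 1.38. The 4 values of Irf9 and the 4 of Irf2 overlapped, with Irf9 below Irf2 in replicate 1. Irf1, the activator that shares sites with Irf2, had 14.1, 14.2, 15.1 and 14.2 TPM, a mean of 14.4 TPM ± 0.496. Irf2 was above Irf1 in 4 of 4 libraries, by a log2 ratio of 0.39 ± 0.10. Both sat near the middle of the protein-coding genes, Irf2 at percentile 54.6 and Irf1 at percentile 50.2 by TPM with merged exon lengths. Irf3, Irf5, Irf8 and Irf7 stood at percentiles 84.9, 79.5, 70.7 and 31.2.

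In falling order the mean TPM thus ran Irf4, Irf3, Irf5, Irf8, Irf9, Irf2, Irf1, Irf7. A pair of neighbours in this order was counted as different beyond its spread where the log2 ratio had the same sign in 4 of 4 libraries and its mean exceeded 2 SD. By that measure 6 of the 7 neighbouring pairs differed. The steps were 2.63 ± 0.05 from Irf4 to Irf3, 0.45 ± 0.06 from Irf3 to Irf5 and 0.64 ± 0.12 from Irf5 to Irf8. Below these, the log2 ratio was 1.07 ± 0.17 for Irf8 over Irf9, 0.39 ± 0.10 for Irf2 over Irf1 and 3.15 ± 0.23 for Irf1 over Irf7. Each of these 6 gave the smallest possible exact permutation p of 0.13. Irf9 over Irf2 was the exception, with a log2 ratio of 0.15 ± 0.21, a range of -0.02 to 0.45 over the libraries and an exact permutation p of 0.25.

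The gene length used decides 2 of these orders. The deposited length is the merged length of all annotated exons, and for Irf2 it was 7396 bases against 2497 for the principal transcript, a ratio of 2.96. For Irf8 it was 7055 against 2847 bases, while for Irf4 it was 4715 against 4764. The principal lengths are from GENCODE M21 and the deposited ones from M13, so a principal length can exceed the merged one. A principal transcript was found for 21725 genes, among them all 8 factors, and every other gene kept its merged length on this scale. With principal transcript lengths Irf5 averaged 62.4 TPM ± 2.34 and Irf8 76.6 TPM ± 5.80, so that Irf5 over Irf8 turned to a log2 ratio of -0.29 ± 0.12. Irf9 then averaged 32.1 TPM ± 3.12 and Irf2 39.1 TPM ± 2.83, a log2 ratio of Irf9 over Irf2 of -0.29 ± 0.21 that still did not exceed its spread. Uncorrected CPM gave the same turned signs, at -0.64 and -0.31. By their means Irf4 came first and Irf3 second, and Irf1 and Irf7 last, on all 3 scales. In CPM, however, Irf3 over Irf8 was only 0.05 ± 0.10 and Irf3 was higher in 2 of 4 libraries. Principal transcript lengths put the share of Irf4 at 54.0% ± 0.744 of the summed TPM of the 8 genes, against 68.8% with merged exons. The percentiles given above rest on merged exon lengths only, so they depend on this choice as well.

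**Figure D2:**
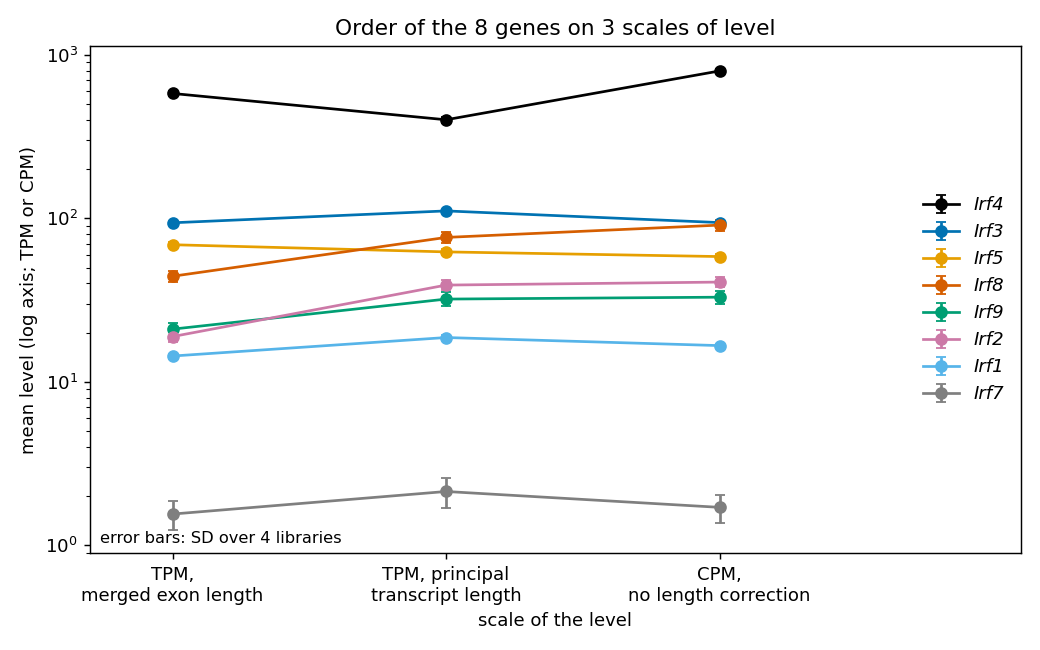
Mean level of each factor on 3 scales with a log axis, from left to right TPM with merged exon length, TPM with the length of the principal transcript and uncorrected CPM, with error bars for the SD over 4 libraries. The lines of Irf5 and Irf8 cross between the scales, as do those of Irf9 and Irf2, while Irf4 stays above all others.

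Every one of the 8 factors lay above 1 CPM. The test was limma on log2(CPM + 0.1), one-sided against 1 CPM, with Benjamini-Hochberg adjustment over all 23365 genes. The call was made for 8 of 8 factors, against a background of 47.4% of all genes tested and 69.3% of the protein-coding ones. None of the 8 lay below 1 CPM (background 48.3%). The adjusted p was at most 1.21e-14 for 7 of them. For Irf7 it was 0.00264, with 1.78, 1.57, 2.14 and 1.35 CPM in replicates 1 to 4, all close to the threshold. Leaving out each library in turn moved that p between 0.00143 and 0.0146, and Irf7 was not above a threshold of 2 CPM. The median of the 8 was 49.6 CPM, beside 0.902 CPM over all genes tested and 18.1 CPM over the protein-coding genes with a count.

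The summed level of the 8 genes, of which Irf4 supplied 68.8%, varied little between libraries. It was 815, 850, 868 and 848 TPM in replicates 1 to 4, a mean of 845 TPM ± 22.1. The coefficient of variation of the CPM was smallest for Irf3 at 1.43%, where counting error alone gives 1.32%. It was 2.61% for Irf1, 2.77% for Irf4 and 4.20% for Irf5, where counting error gives 3.16%, 0.46% and 1.68%. Irf2, Irf8 and Irf9 reached 6.95%, 7.74% and 9.23%, where counting error gives 2.03%, 1.34% and 2.25%. Irf7 had the largest value, 19.6%, against a counting error of 10.2% from its few reads. No library was uniformly high or low for the 8 genes, although replicate 3 was the highest for 4 factors and the lowest for 3.

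None of the 8 factors varied between libraries beyond genes of like abundance (0 of 8, edgeR goodness of fit at the trended dispersion, adjusted over 13279 genes). The background was 0.422% of those genes. At an unadjusted p under 0.05 there was 1, Irf8, whose adjusted p was 0.796 by edgeR. DESeq2 marked 0 of the 8 as a dispersion outlier. The 0.422% belongs to the adjusted edgeR call. For the unadjusted p and for DESeq2 the share over all genes is not given, so neither count is read as a result about the 8. Irf8 had 85.3, 95.9, 84.8 and 98.3 CPM in replicates 1 to 4. With 4 libraries a p that misses the threshold does not show that a gene was constant.

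**Figure D3:**
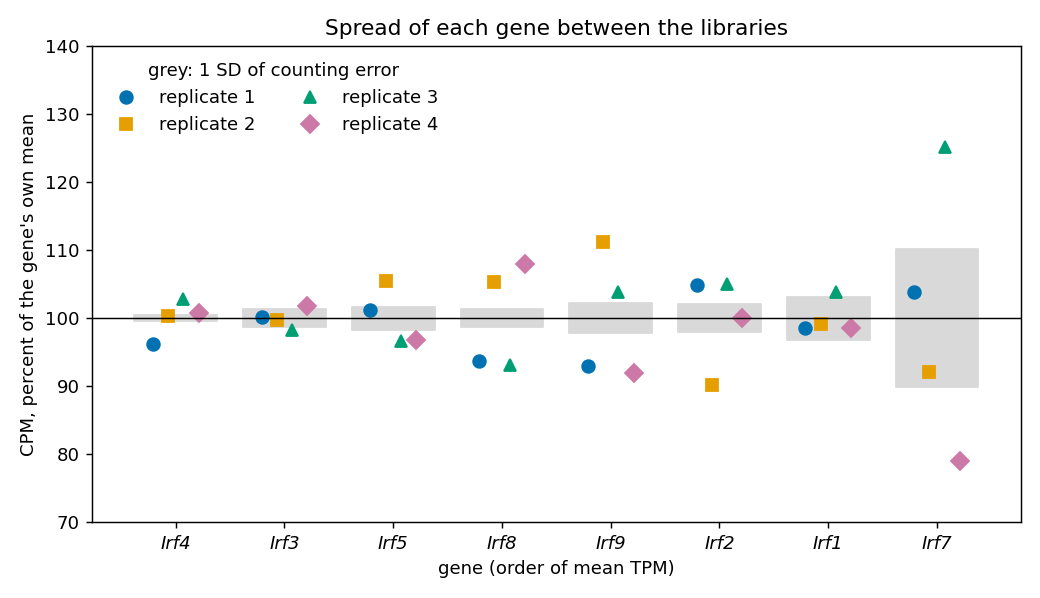
CPM of each library as a percent of the mean of its gene over the 4 libraries, for the 8 factors, with each point 1 library and grey bands for 1 SD of counting error. Irf3 lies between 98.3% and 101.8%, and Irf7 spreads from 78.9% to 125.1%.

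The promoters of 4 of the genes are shown because 3 of them, Irf1, Irf2 and Irf8, are the ones that hold a match to the STAT binding motif GAS, and because Irf4 is the most abundant of the family and holds none. RefSeq (GRCm38.p6) gives 11 promoter windows for the 8 genes, each from 250 bases before to 50 after an annotated start. They were searched on both strands for GAS (TTCNNNGAA), ISRE (GAAA, any 2 bases, GAAA) and AP-1 (TGANTCA). The runs below are the 200 bases from 250 to 51 before the start on the plus strand, the coding strand of these 4 genes, and capitals mark motif matches.

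Irf1 (chr11:53769764-53769963): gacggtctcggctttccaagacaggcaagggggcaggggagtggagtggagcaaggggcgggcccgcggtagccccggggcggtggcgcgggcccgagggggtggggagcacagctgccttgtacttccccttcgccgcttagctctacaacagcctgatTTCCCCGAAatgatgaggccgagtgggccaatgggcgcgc
Irf2 (chr8:46739495-46739694): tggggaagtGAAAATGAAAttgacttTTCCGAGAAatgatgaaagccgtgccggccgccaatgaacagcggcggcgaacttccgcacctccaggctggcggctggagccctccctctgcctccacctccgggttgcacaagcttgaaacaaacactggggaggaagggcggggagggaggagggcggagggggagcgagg
Irf4 (chr13:30748983-30749182): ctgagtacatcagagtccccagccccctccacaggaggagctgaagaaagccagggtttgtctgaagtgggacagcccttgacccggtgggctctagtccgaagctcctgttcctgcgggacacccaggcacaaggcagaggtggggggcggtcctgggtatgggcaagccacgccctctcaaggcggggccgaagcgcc
Irf8 (chr8:120736108-120736307): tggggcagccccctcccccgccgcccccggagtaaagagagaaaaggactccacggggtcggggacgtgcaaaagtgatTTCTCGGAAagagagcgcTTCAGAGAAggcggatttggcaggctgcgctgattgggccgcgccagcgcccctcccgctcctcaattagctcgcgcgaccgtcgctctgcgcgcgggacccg

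The Irf1 window held TTCCCCGAA, a GAS match that begins 90 bases before the start. The Irf2 window held the ISRE match GAAAATGAAA at 241 bases and the GAS match TTCCGAGAA at 224 bases before the start. The Irf8 window held a pair of GAS matches, TTCTCGGAA at 171 and TTCAGAGAA at 153 bases before the start. GAS was thus in 3 of the 11 windows (27.3%), beside 8.30% of all 32851 RefSeq mouse windows, and ISRE in 1 of 11 (9.09%), beside 3.44%. AP-1 was in 0 of the 11 windows, beside 7.81% of all. No match overlapped another. A match describes letters and does not show that a factor bound there.

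The 8 genes lie at separate places on 6 chromosomes, and several overlap a neighbour. In mm10, Irf4 (ENSMUSG00000021356.9) lies on chromosome 13 from 30749226 to 30766927 and Irf1 (ENSMUSG00000018899.16) on chromosome 11 from 53770014 to 53778374, both on the plus strand. Irf2 (ENSMUSG00000031627.9) and Irf8 (ENSMUSG00000041515.9) lie on the plus strand of chromosome 8, from 46739732 to 46847458 and from 120736358 to 120756694. Irf3 (ENSMUSG00000003184.15) lies on the plus strand of chromosome 7 from 44997648 to 45002848, and Irf7 (ENSMUSG00000025498.15) on its minus strand from 141262706 to 141266481. Irf5 (ENSMUSG00000029771.12) lies on chromosome 6 from 29526625 to 29541871 and Irf9 (ENSMUSG00000002325.14) on chromosome 14 from 55603571 to 55610030, both on the plus strand.

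Irf3 runs against Bcl2l12, a gene named for its likeness to the BCL2 family, on the opposite strand, with 88 exonic bases in common. Irf3 averaged 94.3 CPM ± 1.35 and Bcl2l12 26.5 CPM ± 1.09. The next gene on the other side of Irf3, Scaf1, lies on the opposite strand. Its 3' end is separated from Irf3 by a gap of 99 bases, and it averaged 185 CPM ± 11.9. Irf5 shares 411 exonic bases with the nuclear import gene Tnpo3 on the opposite strand, which averaged 251 CPM ± 5.34, and Irf7 shares 45 with Phrf1, at 199.3 CPM ± 6.74. The counting option in the file headers uses strand. Gm17334, annotated on the opposite strand across 135 exonic bases of Irf1, had 0 counts in all 4 libraries. Irf9 shares 123 bases (2.28% of its exons) on the same strand with the ubiquitin ligase gene Rnf31, and the counting command names no option to count reads that overlap several genes, so Irf9 and Rnf31 (62.2 CPM ± 6.30) may both be slightly undercounted. Irf9 was lowest in replicate 4, at 30.3 CPM, whereas Rnf31 was lowest in replicate 1, at 53.2 CPM. Irf8 lies inside the span of the long model Gm20388 on the same strand, shares no exonic base with it, and Gm20388 had 0 counts. Upstream of Irf2, the divergent long noncoding RNA gene Gm16675 starts 216 bases away on the opposite strand and averaged 2.01 CPM ± 0.443. The antisense models Gm45479 and Gm31172 and the model Gm45481 within Irf2 had 0 counts.

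Few reads came from the interferon ligands. Of 19 interferon genes, 0 lay above 1 CPM, beside the 69.3% of protein-coding genes with a count. Here and below, that 69.3% leaves out genes without a count, whereas the list totals keep them. Below 1 CPM lay 5, and 14 had no count, a median of 0 CPM. Ifnb1, the type I interferon first induced through IRF3, had 0, 0.0887, 0.00783 and 0.0375 CPM in replicates 1 to 4, or 7 counts in all. Ifng, the type II interferon made by T cells and NK cells, had 0.439, 0.244, 0.149 and 0.150 CPM, or 63 counts. All its values were below 1 CPM, although 26.0% of its exonic bases are shared with a gene on the same strand. The other 3 with a count, Ifna4, Ifnab and Ifnz, were named after their values were seen and averaged at most 0.0337 CPM. The Ifna genes are close copies of each other, so reads could be lost or split among them and their levels are uncertain.

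Most receptors and JAK-STAT transducers were above the threshold. Of 11 genes, 10 (90.9%) lay above 1 CPM, beside the 69.3% of protein-coding genes, and 1 lay below, with a median of 28.2 CPM. The kinase genes Jak2 and Jak1 averaged 490 CPM ± 10.8 and 348 CPM ± 11.03, the kinase gene Tyk2 118 CPM ± 4.55 and the type I receptor chain gene Ifnar1 89.04 CPM ± 6.67. Stat2, whose product binds IRF9, averaged 21.7 CPM ± 0.868. Ifnlr1, the specific chain of the type III interferon receptor, was the gene below, with 0, 0.0222, 0.0313 and 0.225 CPM.

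Most of the sensors and kinases upstream of IRF3, IRF5 and IRF7 were also above 1 CPM. The share was 16 of 20 (80.0%), beside the 69.3% of protein-coding genes with a count, and the list had a median of 32.5 CPM. The 4 highest per length were Tmem173 (STING, the adaptor of cytosolic DNA sensing) at 167 CPM ± 7.23, the kinase gene Irak1 at 136 CPM ± 3.64, Myd88 at 70.6 CPM ± 5.33 and Mavs, the adaptor of RNA sensing, at 52.5 CPM ± 1.56. Below 1 CPM lay Tlr3, Tlr4 and Tlr9, Toll-like receptors for double-stranded RNA, lipopolysaccharide and unmethylated DNA, at 0.0138, 0.0609 and 0.437 CPM on average. Tlr8 had 0 counts.

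Of 20 genes for DNA-binding partners and cofactors of the family, 17 (85.0%) lay above 1 CPM, beside the 69.3% of protein-coding genes. The other 3 lay below, and the list had a median of 79.7 CPM. The AP-1 genes Junb and Jund averaged 707 CPM ± 34.7 and 444 CPM ± 10.6, and the zinc finger gene Ikzf1 677 CPM ± 10.4. Batf, whose product pairs with JUN proteins and IRF4 on composite sites in T cells, had 80.2, 80.8, 72.5 and 77.9 CPM, and where Irf4 averaged 582 TPM, Batf averaged 280 TPM ± 11.5. Spi1, which encodes PU.1, the ETS partner of IRF4 and IRF8 in myeloid and B cells, had 0.105, 0.177, 0 and 0.0937 CPM. The other 2 below 1 CPM were relatives of Batf, Batf2 at 0.0209 CPM ± 0.0242 and Batf3 at 0.623 CPM ± 0.193.

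Among 17 genes described as IRF4 targets in T cells, 11 (64.7%) lay above 1 CPM, near the 69.3% of protein-coding genes, and 6 lay below, with a median of 41.2 CPM. Tested as TPM against 1, 3 of the 17 lay below. The highest per length were the growth factor gene Il2 at 669 CPM ± 33.3, the inhibitory receptor gene Ctla4 at 441 CPM ± 21.4, the IL-2 receptor alpha chain gene Il2ra at 555 CPM ± 28.6, and Batf. Prdm1, which encodes the effector repressor BLIMP1, was among the 6 below, with 0.176, 0.0222, 0.0626 and 0.0749 CPM.

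Of 24 interferon-stimulated genes, 15 (62.5%) lay above 1 CPM, near the 69.3% of protein-coding genes, and 9 lay below, and where the 8 factors had a median of 49.6 CPM, these genes had one of 2.99 CPM. The highest per length were the surface protein gene Bst2 at 73.4 CPM ± 2.01, the ubiquitin ligase gene Trim25 at 129 CPM ± 4.38, the RNA-editing enzyme gene Adar at 133 CPM ± 9.31 and the GTPase gene Gbp2 at 21.8 CPM ± 2.43. Against 5 CPM in place of 1 CPM, 9 of the 24 genes lay above. Of 15 genes of antigen presentation under IRF1, NLRC5 or CIITA, 13 (86.7%) lay above 1 CPM, beside the 69.3% of protein-coding genes. Below it lay 2, and the 15 genes had a median of 108 CPM. The class I genes led these, with H2-K1 at 777 CPM ± 21.4, H2-D1 at 545 CPM ± 10.6 and the light chain gene B2m at 308 CPM ± 13.5, beside the immunoproteasome gene Psmb8 at 225 CPM ± 13.96. The 2 below were Ciita, the class II transactivator, at 0.0298 CPM ± 0.0414 and the class II chain gene H2-Aa at 0.310 CPM ± 0.142.

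Of 11 inhibitors of interferon signalling, 9 (81.8%) lay above 1 CPM, beside the 69.3% of protein-coding genes with a count. Of the rest, 0 lay below, 1 passed neither test and 1 had no count. The highest per length were the phosphatase genes Ptpn6, Ptpn1 and Ptpn2 at 458 CPM ± 16.3, 203 CPM ± 2.55 and 51.6 CPM ± 1.84 and the SOCS family gene Cish at 163 CPM ± 7.23. The gene without a count was Trex1, a DNA exonuclease gene, and 100% of its exonic bases are shared with another gene on the same strand, so its reads may not have been assigned. Usp18, which blocks the type I receptor and was named after its values were seen, passed neither test, with 0.404, 2.35, 1.75 and 1.46 CPM. Replicate 1 was the low library, and Usp18 varied beyond genes of like abundance (edgeR goodness of fit, adjusted p = 0.0162).

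**Figure D4:**
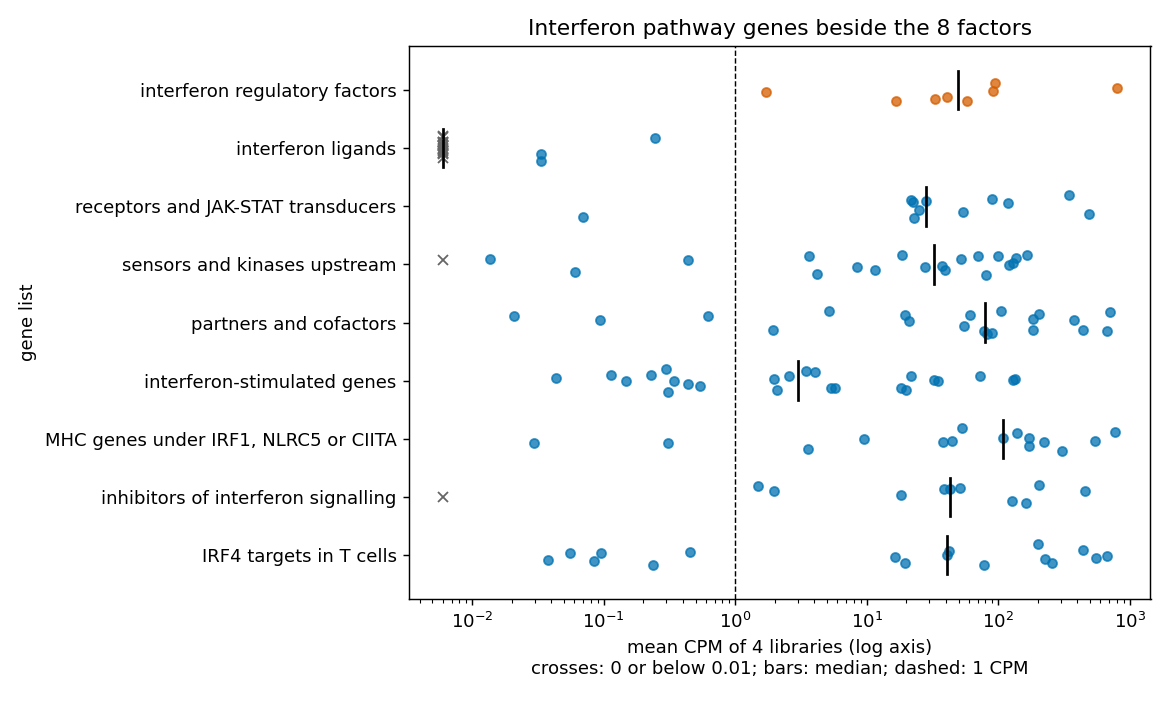
Mean CPM of every gene of the 8 pathway lists and of the 8 factors on a log axis, with each point 1 gene, the bar the median of its list, the dashed line 1 CPM and crosses genes at 0 or below 0.01 CPM. The 8 factors all lie right of the dashed line, and the interferon ligands all lie left of it.

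Irf5, Irf7 and Irf8 are also expressed by B cells and myeloid cells, and in bulk RNA fewer cells of a type and less RNA per cell cannot be told apart. Irf5 averaged 58.5 CPM ± 2.46 and Irf8 91.1 CPM ± 7.05. Of 8 B cell markers 1 lay above 1 CPM, Ebf1 at 1.53 CPM ± 0.471, and the 8 summed to 3.41 to 5.55 CPM. Of 8 macrophage and monocyte markers 2 lay above, Adgre1 at 2.60 CPM ± 0.332 and Cd68 at 2.69 CPM ± 0.315, the 8 summed to 4.66 to 6.31 CPM, Lyz2 and Fcgr1 were at 0, and Csf1r had 1 count. Of 8 markers of conventional dendritic cells 2 lay above, Zbtb46 at 5.76 CPM ± 0.845 and H2-Ab1 at 9.59 CPM ± 0.231, the 8 summed to 14.5 to 16.7 CPM, and Itgax, Clec9a, Cd209a and Clec10a were at 0. Of 8 markers of plasmacytoid dendritic cells 4 lay above, Bst2 at 73.4 CPM, Pacsin1 at 25.5 CPM ± 1.19, Runx2 at 9.96 CPM ± 1.12 and Tcf4 at 7.48 CPM ± 0.923. The 8 summed to 115 to 120 CPM, Siglech had 4 counts, and Klk1 was at 0. Of 8 NK cell markers 1 lay above, and the 8 summed to 2.57 to 3.09 CPM. The part of such cells in the levels of Irf5, Irf7 and Irf8 was not tested.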

How the data were processed

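Gene-level counts from 4 libraries of mouse T cells were analysed. The deposited tables hold raw counts of read pairs, made per the file headers with featureCounts 1.4.6-p4 over GENCODE M13 exons, with strand option 2, from STAR alignments. Per the labels, mm10 was the assembly. The deposited length is the merged exon length. The assay is labelled total RNA-seq, but a protocol for polyadenylated RNA is linked. The header command names no option to count multiply mapped reads or reads over several genes. Trimming is not given in the sources used.

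Symbols from GENCODE M21 matched 50376 of 50600 genes (99.6%). CPM and TPM were computed from the counts. Levels were tested against 1 CPM with limma 3.58.1 on log2(CPM + 0.1), one-sided, adjusted by Benjamini-Hochberg over 23365 genes. Variability was tested with edgeR 4.0.16 (TMM, factors 0.9958 to 1.002, 13279 genes passing filterByExpr), with DESeq2 1.42.0 as an alternative. The scripts were tested on simulated data. Libraries differed in pairs beyond counting noise (chi-square per degree of freedom 7.78 to 24.2). Each was counted as 1 sample, but such a difference cannot show that they are independent, and all share a donor identifier. Other tools were R 4.3.3, python 3.11.15 and scipy 1.17.1.

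The members and lists were chosen with earlier results of these data known. Besides the 8 factors, the text names from every list the 4 genes above 1 CPM with the highest TPM, those not above it where they are 5 or fewer, 8 genes fixed by name, overlapping or adjacent genes within 1000 bases, and the markers. Some named items are not reported here. No gene is named for a likeness to a factor across samples, since 4 libraries of 1 group give no pattern across conditions. Alternatives covered normalization, filters, pseudocounts, thresholds of 2 and 5 CPM, gene length, motif windows and leaving out each library.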

Additional observations from a re-analysis of the deposited data

Results flagged for a closer look

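The 4 values of each named gene and each factor were examined for a library far from the others. The gap of 1 library to its nearest neighbour was divided by the whole range. In 9 of 87 sets this exceeded Dixon's critical value for 4 samples. For normally distributed values chance gives about 1 in 20 such sets. Genes with few counts do not meet that condition, and a gene counted in a single library always has a gap of the whole range. The 9 of 87 can therefore not be read as more than chance gives.

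Among the factors this was Irf1 alone (gap 0.880 of the range), with 17.3 CPM in replicate 3 against 16.4 to 16.5 CPM in the others. Its whole range was narrow, and its adjusted p for variation was 1.0 by edgeR. Of the abundant pathway genes, Myd88 (gap 0.906) had 78.5 CPM in replicate 1 against 67.3 to 68.4 CPM in the others, again with an adjusted p of 1.0. Among the T cell coreceptors, Cd4 (gap 0.857) had 945 CPM in replicate 3 against 924 to 927 CPM, and Cd8a (gap 0.912) 0.492 CPM in replicate 1 against 0.196 to 0.222 CPM. Ifnlr1 (gap 0.861) had 0.225 CPM in replicate 4 against 0 to 0.0313 CPM. For Csf1r, Ifna4, Ifnz and Siglech the gap was the whole range (1.0), since their 1, 2, 3 and 4 counts each came from a single library.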

How the results depend on the processing

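The count of factors above 1 CPM was 8 under 12 of 14 alternatives and 7 at thresholds of 2 and 5 CPM, where Irf7 dropped out. At 5 CPM 1 factor, Irf7, lay below, and under the other 13 alternatives none did. The count that varied between libraries was 0 under all 9 alternatives. Of the 7 neighbouring pairs, 6 differed beyond their spread in the reported direction in 7 of 9 alternatives. In uncorrected CPM and with principal transcript lengths 5 did so, and Irf5 and Irf8 differed in the other direction, and the principal lengths were chosen after seeing the data. Irf5 over Irf8 reversed, to -0.64 in CPM and -0.29 with principal lengths. Irf9 over Irf2 reversed, to -0.31 in CPM and -0.29 with principal lengths. In both pairs the change lies in the lengths alone. Of 63 neighbour ratios 50 moved by less than 1 SD, and 9 more kept their sign. Of 224 list counts 15 moved by over 1.5 times. Within the 150 bases nearest the start, ISRE was in 0 of 11 member windows and GAS in 1 of 11 (9.09%, beside 3.91% of all windows). The reverse complement form of ISRE (TTTC, any 2 bases, TTTC) was in 0 on the coding strand, where the Irf2 match is in the forward form. Leaving out a library gave 8, 0 and 6 for these counts each time. No paired analysis was possible because the labels give 1 group only. For Irf7, counting error gives a coefficient of variation of 10.2%, beside 19.6% observed, and ligand genes with 0 counts are limited by the depth.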

Other observations

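Pairs of genes with like roles differed in level within the sensing pathway, and the genes of this paragraph were named after their values were seen. Ifih1 (MDA5, a sensor of long double-stranded RNA) averaged 50.7 TPM ± 2.34 and Ddx58 (RIG-I, a sensor of RNA ends) 4.12 TPM ± 0.354. Of the kinases that act on IRF3 and IRF7, Ikbke averaged 49.7 TPM ± 0.791 and Tbk1 34.4 TPM ± 1.38. Class II presentation genes stood at unlike levels beside Ciita, which had 0.0194 TPM ± 0.0269. Cd74, the invariant chain gene, averaged 263 TPM ± 7.46, H2-Ab1 20.1 TPM ± 0.481, H2-Eb1 10.5 TPM ± 1.58 and H2-Aa 0.567 TPM ± 0.256. No ratio within these pairs was tested.

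The interferon-stimulated genes ranked the libraries unevenly, a pattern noticed in these data. Of the 15 above 1 CPM, 11 (73.3%) were lowest in replicate 1, beside 27.7% of all 11554 genes at 1 CPM or more on average. Replicate 3 was highest for 8 of the 15 (53.3%), beside 21.3% of those genes. Isg15, named after its values were seen, had 3.55, 4.50, 7.08 and 6.46 CPM in replicates 1 to 4, and its adjusted p for variation was 0.110 by edgeR. Of the 8 factors, replicate 1 was lowest for 1 and replicate 3 highest for 4. These are descriptions of 4 libraries, and genes that respond together are not independent.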
